A study of Mus musculus with 17 samples.

Results

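The collagen gene family was followed in whole mouse kidneys at stage E12.5 in which beta-catenin had been stabilised either in the stromal lineage or in nephron progenitors. Of 41 listed collagen genes, all found among the 24432 gene IDs of the deposited table, 33 reached 1 FPKM (fragments per kilobase of transcript, scaled to library size) in at least 3 of the 17 libraries and were kept. Kept genes comprised 10 of 11 fibrillar, 6 of 8 basement membrane, 7 of 9 FACIT (fibril-associated collagens with interrupted triple helices) and 10 of 13 other collagens. Left out were Col5a3, Col4a3, Col4a4, Col19a1, Col22a1, Col10a1, Col17a1 and Col28a1, none of which reached 1 FPKM in any library. Nearest to the limit from below was Col22a1, with at most 0.983 FPKM, and from above Col8a1, which reached 1 FPKM in 4 libraries. Col7a1 and Col8a1 were kept only because mutant libraries counted toward the limit, so that a difference in them was built into the selection.

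Kidneys of genotype Ctnnb1-delta3 c/+;Foxd1 (5 libraries, called Foxd1-Cre) carried the activated Ctnnb1 allele with a Cre that acts in the stromal lineage, and those of genotype Ctnnb1-delta3 c/+;Six2 (3 libraries, Six2-Cre) carried it with a Cre that acts in nephron progenitors. Wild-type kidneys (9 libraries) had the same labelled stage and the same labelled strain, mixed. In such models the allele is recombined in every descendant of a Cre-expressing cell, while ureteric bud, endothelium and other lineages keep the normal allele. Whether the controls carried Cre, whether libraries of a group came from separate animals or litters, and whether a library held kidneys of several embryos, is not given in the sources used here. Foxd1-Cre was set against wild types 1 to 6 and Six2-Cre against wild types 7 to 9, so that the comparisons shared no library, and p-values measure only the spread between these libraries.

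Collagens are the main structural proteins of the extracellular matrix, each wound from alpha chains that may come from the same gene or from several. Fibrillar collagens form the fibres of connective tissue, FACIT collagens coat those fibres, and type IV collagens polymerise into the sheet under every epithelium and endothelium. In the fetal kidney the stroma around the nephrons is rich in fibrillar collagen, and the basement membranes of ureteric bud, nephron and vessel hold type IV collagen. Beta-catenin carries the canonical Wnt signal to the nucleus, where it acts with TCF and LEF factors bound to DNA.

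Promoter sequence is shown first for the genes of the type IV network, because both chains of the common heterotrimer are transcribed from the same short stretch of DNA. Col4a1 (chr8:11198423-11312826, minus strand) and Col4a2 (chr8:11312805-11449287, plus strand; both GRCm38, GENCODE release M21) lie head to head, with annotated 5′ ends that overlap. In RefSeq's promoter windows of GRCm38.p6, which run from 250 bases before to 50 bases after each start, they share 78 bases, chr8:11312777-11312854, given in capitals on each gene's own strand.
Col4a1: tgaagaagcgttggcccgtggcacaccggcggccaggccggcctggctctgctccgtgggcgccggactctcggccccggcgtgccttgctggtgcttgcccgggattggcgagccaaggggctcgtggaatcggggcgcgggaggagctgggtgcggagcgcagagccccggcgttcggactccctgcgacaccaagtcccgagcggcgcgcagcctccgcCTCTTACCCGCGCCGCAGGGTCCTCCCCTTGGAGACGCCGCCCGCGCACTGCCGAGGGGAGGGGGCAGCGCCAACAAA
Col4a2: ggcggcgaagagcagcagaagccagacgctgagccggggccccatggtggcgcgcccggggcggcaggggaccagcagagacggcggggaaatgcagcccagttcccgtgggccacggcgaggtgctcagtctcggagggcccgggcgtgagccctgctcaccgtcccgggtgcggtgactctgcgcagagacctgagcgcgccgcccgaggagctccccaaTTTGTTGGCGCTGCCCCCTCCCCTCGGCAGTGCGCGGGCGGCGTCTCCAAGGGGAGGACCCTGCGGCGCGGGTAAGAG
The remaining windows are those of kept collagen genes that were called in either mutant and hold the TCF/LEF motif CTTTGAA, or its reverse complement TTCAAAG, which is in capitals. They belong to Col6a2 (chr10:76623581-76623880, minus strand), Col15a1 (chr4:47207762-47208061, plus strand) and Col9a1 (chr1:24177360-24177659, plus strand). Col6a2 and Col9a1 each have another window, not printed, without this motif.
Col6a2: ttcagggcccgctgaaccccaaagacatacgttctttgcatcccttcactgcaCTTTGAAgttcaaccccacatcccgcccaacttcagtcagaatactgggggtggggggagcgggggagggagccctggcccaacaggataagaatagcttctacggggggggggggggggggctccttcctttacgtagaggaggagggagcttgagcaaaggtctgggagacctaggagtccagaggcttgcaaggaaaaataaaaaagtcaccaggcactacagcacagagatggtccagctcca
Col15a1: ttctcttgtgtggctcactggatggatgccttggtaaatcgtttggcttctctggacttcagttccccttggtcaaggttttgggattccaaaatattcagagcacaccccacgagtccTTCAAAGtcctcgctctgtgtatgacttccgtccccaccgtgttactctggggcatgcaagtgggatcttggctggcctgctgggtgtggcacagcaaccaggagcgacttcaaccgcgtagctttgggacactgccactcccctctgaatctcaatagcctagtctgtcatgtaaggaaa
Col9a1: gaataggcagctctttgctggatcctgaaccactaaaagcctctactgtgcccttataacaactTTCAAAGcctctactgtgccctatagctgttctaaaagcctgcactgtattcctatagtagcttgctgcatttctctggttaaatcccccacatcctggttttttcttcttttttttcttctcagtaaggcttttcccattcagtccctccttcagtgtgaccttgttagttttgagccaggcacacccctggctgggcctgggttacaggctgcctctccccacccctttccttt
The 32 collagen genes with an entry had 35 windows. Searched on both strands, CTTTGAA was found in 4 of the 35, namely the 3 printed and that of Col13a1, and in 5.14% of all 32851 windows. The motif CTTTGAT was found in 1 of the 35, that of Col9a2, and in 3.73% of all windows. GC boxes (GGGCGG) were present in 20 of the 35 collagen windows (19 genes) and in 35.7% of all windows. The CCAAT box (CCAAT) was in 12 of the 35 and in 37.4% of all, and the TATA box (TATAAA) in 5 and in 13.6%. A match describes the sequence only. The table had no entry for Col1a1, Col2a1, Col4a3, Col5a2, Col9a3, Col12a1, Col14a1, Col22a1 and Col26a1.

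Total RNA was sequenced, and the 6 libraries of Six2-Cre and wild types 7 to 9 were shallower than the other 11. The smallest steps between FPKM values corresponded to 5360180 to 6121500 reads in them and to 28830242 to 37547161 reads in Foxd1-Cre and wild types 1 to 6. As a check of the labels, Foxd1 had 19.9 ± 3.32 FPKM in Foxd1-Cre kidneys (SD, n = 5) and 102 ± 7.97 FPKM in wild types 1 to 6 (n = 6), and Six2 had 17.95 ± 0.266 FPKM in Six2-Cre kidneys and 80.8 ± 8.95 FPKM in wild types 7 to 9 (SD, n = 3 each). Total Ctnnb1 RNA does not show the excised exon and checks nothing about the allele. Wild type 5 stood apart in the collagens: of the wild types 1 to 6 it was the lowest for 18 of the 33 kept genes and the highest for 6, against 27.8% and 24.1% of all genes tested. Its Col4a1 level was 37.9 FPKM, where the other 5 had 72.5 to 79.2 FPKM.

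**Figure D1:**
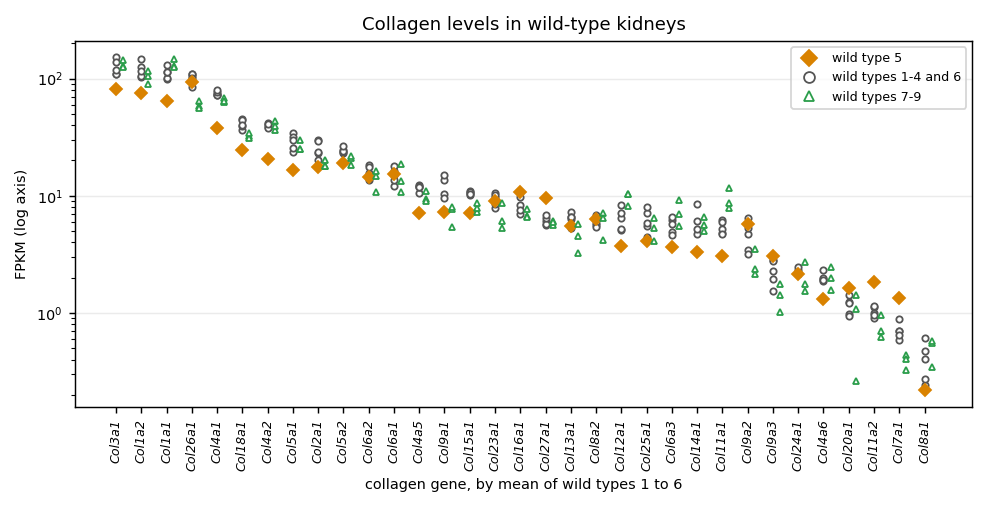
Levels of the 33 kept collagen genes in wild-type kidneys (FPKM, log axis; points are libraries; triangles, wild types 7 to 9), ordered by the mean of wild types 1 to 6. Wild type 5 (diamonds) lies below the other 5 of that set (circles) for 18 genes, among them Col4a1 and Col18a1, and above them for 6, among them Col27a1 and Col7a1.

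In wild-type kidneys the most abundant collagens per length were Col3a1, Col1a2 and Col1a1 (means of 118 ± 24.9, 112 ± 24.1 and 103 ± 22.3 FPKM in wild types 1 to 6, SD, n = 6). Col26a1 and Col4a1 followed, with 101 ± 10.01 and 68.9 ± 15.4 FPKM, the ranges of the first 4 overlapped, and the remaining kept genes averaged 38.4 FPKM or less. In wild types 7 to 9 the same 5 genes led, with Col1a1 first at 133 ± 12.0 FPKM (SD, n = 3). The 41 listed genes summed to 961 to 1268 FPKM in Foxd1-Cre kidneys and 578 to 943 FPKM in wild types 1 to 6, and to 977 to 1068 FPKM in Six2-Cre kidneys and 716 to 817 FPKM in wild types 7 to 9. In both comparisons every mutant library lay above every one of its controls in this sum. In whole tissue a higher level can mean more cells of a type or more RNA per cell, and these cannot be told apart.

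With stabilised beta-catenin in stroma, 11 of the 31 collagen genes that reached 1 FPKM in at least 3 wild types rose (35.5%), and 1, Col24a1, fell (3.23%). Of the 13449 genes that met this condition 7.69% were called higher in that comparison and 4.94% lower. Over all 33 kept genes, Col7a1 included, 12 were called higher and 20 were not called, where 8.45% of all 13996 genes tested were called higher and 4.82% lower. With stabilised beta-catenin in nephron progenitors, 14 of the 33 rose and none fell, 42.4% of the kept genes, against 7.93% of 13828 genes called higher and 5.84% lower. None of these 14 depended on mutant libraries to be kept. At an unadjusted p under 0.05 in limma, 17 of the 33 were higher and 2 lower in Foxd1-Cre, against 13.9% and 11.4% of all genes tested. At the same threshold 19 were higher and 0 lower in Six2-Cre, against 15.3% and 14.2%. The 17 include Col7a1 and the 19 include Col8a1, whose differences were built into the selection. The median log2 change of the kept genes was 0.30 for Foxd1-Cre and 0.31 for Six2-Cre, where the median of all genes tested was -0.0079 and -0.0085. Changes are on the log2(FPKM + 1) scale, which understates those of low genes, errors are limma's standard errors (SE), and a call is a Benjamini-Hochberg adjusted p under 0.05 over all genes tested. Of all calls for Foxd1-Cre 63.7% were higher, against 75.4% after each library was rescaled to the same total and 53.1% after quantile normalization, while the collagen calls were 12 higher and 1 lower, and 11 higher and 1 lower, under these scalings.

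Every Foxd1-Cre library lay above wild types 1 to 6 for 8 of the kept collagens (24.2%) and below for 1, against 6.89% and 3.8% of all genes tested. Every Six2-Cre library lay above wild types 7 to 9 for 19 (57.6%) and below for 2, Col11a2 and Col16a1, against 18% and 17.7%. Without Col7a1 and Col8a1 the Six2-Cre count above was 18 of 31 (58.1%), against 17.3% of genes that met the condition on wild types. Col1a2, Col3a1, Col11a1, Col14a1, Col15a1, Col18a1 and Col26a1 rose in both mutants. These 7 genes are 58.3% of the 12 genes called higher in Foxd1-Cre and 50% of the 14 in Six2-Cre. Another 12 genes were called in either comparison but not raised in both, and of these the test of the difference called Col9a1 and Col24a1, as it did Col18a1 among the 7. Without wild type 5 the Foxd1-Cre comparison called 14 collagens, the same 13 and Col27a1. The Six2-Cre count was less stable and fell to 8 without Six2-Cre 1 or Six2-Cre 3 and to 9 without wild type 7.

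**Figure D2:**
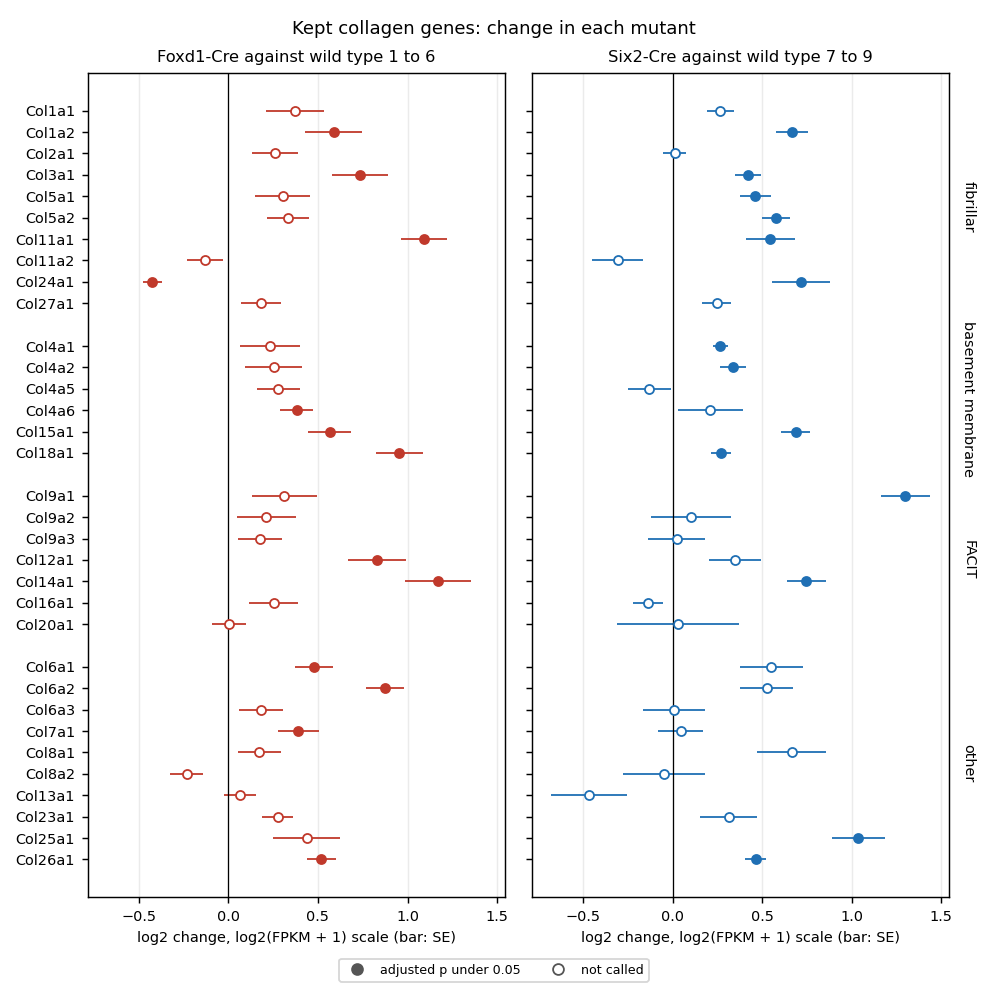
Log2 change of each kept collagen gene (rows, by class) in Foxd1-Cre (left, n = 5 against 6) and Six2-Cre (right, n = 3 against 3), with bars for the SE and filled points for calls. Most points lie right of 0 in both panels, Col24a1 falls in Foxd1-Cre and rises in Six2-Cre, and the largest values are Col14a1 (1.17) in Foxd1-Cre and Col9a1 (1.30) in Six2-Cre.

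Among fibrillar collagens 3 of the 10 kept genes rose in Foxd1-Cre (30%: Col1a2, Col3a1, Col11a1) and 1 fell (10%: Col24a1). In Six2-Cre 6 rose (60%: Col1a2, Col3a1, Col5a1, Col5a2, Col11a1, Col24a1). Of all genes tested 8.45% were called higher and 4.82% lower in Foxd1-Cre, and 7.93% and 5.84% in Six2-Cre. The classes that follow are read against the same shares, and each class holds few genes. Col11a1 encodes a type XI chain, which sets fibre diameter and is best known from cartilage. It had 10.5, 10.9, 12.2, 13.2 and 11.4 FPKM in Foxd1-Cre kidneys, against 3.09 to 6.25 FPKM (median 5.03) in wild types 1 to 6. All 5 mutant libraries lay above all 6 controls, with a log2 change of 1.09 ± 0.13 (adjusted p = 0.000125). In Six2-Cre kidneys it had 14.1, 13.4 and 14.5 FPKM, against 7.86, 11.6 and 8.61 FPKM in wild types 7 to 9, again without overlap, and the log2 change was 0.55 ± 0.14 (adjusted p = 0.0475). It was no longer called once Six2-Cre 1, 2 or 3 or wild type 7 or 9 was left out (adjusted p 0.107 to 0.137), under quantile normalization, without the filter and without the variance trend.

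Type III collagen, made of Col3a1 chains alone, is the fibre of soft, stretching tissue. Col3a1 had 146, 197, 207, 231 and 197 FPKM in Foxd1-Cre kidneys, against 80.9 to 151 FPKM (median 114) in wild types 1 to 6. Foxd1-Cre 1 lay within the control range and the other 4 above it, for a log2 change of 0.74 ± 0.16 (adjusted p = 0.00798). In Six2-Cre kidneys the values were 187, 164 and 182 FPKM, against 127, 127 and 143 FPKM in wild types 7 to 9, with no overlap and a log2 change of 0.42 ± 0.071 (adjusted p = 0.0145). Without Six2-Cre 1 or 3 or wild type 7 or 8 the Six2-Cre call was lost (adjusted p 0.0506 to 0.0583).

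Type I collagen, the bulk of connective tissue fibre, joins Col1a1 and Col1a2 chains. Col1a2 had 126, 172, 171, 200.3 and 165 FPKM in Foxd1-Cre kidneys, against 74.7 to 147 FPKM (median 111) in wild types 1 to 6, and 170.4, 157 and 164 FPKM in Six2-Cre kidneys, against 104, 90.3 and 115 FPKM in wild types 7 to 9. Its log2 change was 0.59 ± 0.16 in Foxd1-Cre, where the groups overlapped (adjusted p = 0.0307), and 0.67 ± 0.089 in Six2-Cre, where they did not (adjusted p = 0.00664). Leaving out Foxd1-Cre 2, 3, 4 or 5 or wild type 1 or 3 ended the Foxd1-Cre call (adjusted p 0.0619 to 0.0760). Col1a1 had 104, 141, 134, 156 and 126 FPKM in Foxd1-Cre kidneys, against 64.0 to 129 FPKM (median 107) in wild types 1 to 6, and 171, 150.5 and 159.6 FPKM in Six2-Cre kidneys, against 128, 125 and 147 FPKM in wild types 7 to 9. The Foxd1-Cre groups overlapped and the Six2-Cre groups did not, and it was called in neither (log2 change 0.37 ± 0.16 in Foxd1-Cre, adjusted p = 0.176; 0.27 ± 0.078 in Six2-Cre, adjusted p = 0.0743). Without wild type 5 the Foxd1-Cre change was 0.24.

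The ratio of Col1a1 to Col1a2 was lower in both mutants. It was 0.761 to 0.831 in Foxd1-Cre kidneys and 0.857 to 0.984 in wild types 1 to 6, and 0.956 to 1.00 in Six2-Cre kidneys and 1.23 to 1.38 in wild types 7 to 9. Neither pair of ranges overlapped, and the ranges of the wild-type sets did not overlap each other either. The ratio of Col3a1 to Col1a1 was 1.39 to 1.57 in Foxd1-Cre kidneys and 1.04 to 1.26 in wild types 1 to 6, and 1.09 to 1.139 in Six2-Cre kidneys and 0.976 to 1.02 in wild types 7 to 9. Ratios within a library do not depend on how the libraries were scaled to each other, and they are given as a description without a test. Separation was not counted over other gene pairs. The ratios of Col4a5 to Col4a6 and of Col5a1 to Col5a2 overlapped in both comparisons.

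Type V collagen starts type I fibres and joins Col5a1 with Col5a2. Col5a1 had 40.3, 34.3 and 36.9 FPKM in Six2-Cre kidneys, against 25.2, 25.3 and 29.6 FPKM in wild types 7 to 9, and Col5a2 had 30.7, 32.3 and 29.6 FPKM, against 21.1, 18.2 and 21.9 FPKM. Both rose without overlap, by 0.46 ± 0.087 (adjusted p = 0.0207) and 0.58 ± 0.079 (adjusted p = 0.00717) on the log2 scale, and the Col5a1 call was lost without Six2-Cre 1 or 3 or wild type 7 or 8 (adjusted p 0.0617 to 0.0707). In Foxd1-Cre kidneys Col5a1 had 27.7, 34.9, 34.7, 34.1 and 32.5 FPKM, against 16.7 to 34.1 FPKM (median 27.7) in wild types 1 to 6, and Col5a2 had 23.0, 27.6, 32.3, 38.5 and 29.3 FPKM, against 18.9 to 26.5 FPKM (median 23.9). Those groups overlapped for each gene and neither was called (log2 changes of 0.30 ± 0.15, adjusted p = 0.253, and 0.33 ± 0.12, adjusted p = 0.0877), and without wild type 5 the Col5a1 change was 0.18.

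Col24a1 was the collagen called in opposite directions in the mutants. It encodes a minor fibrillar collagen known from developing mouse bone and cornea, and an antisense gene, 9530034A14Rik, overlaps it. Whether counting used strand is not given in the sources used here, so that reads of a gene and its antisense partner may not be told apart. It had 1.38, 1.71, 1.33, 1.30 and 1.37 FPKM in Foxd1-Cre kidneys, against 2.14 to 2.45 FPKM (median 2.19) in wild types 1 to 6, all mutants below all controls. Six2-Cre kidneys had 3.79, 4.07 and 3.82 FPKM, against 1.54, 2.75 and 1.75 FPKM in wild types 7 to 9, all mutants above all controls. The log2 change was -0.42 ± 0.053 for Foxd1-Cre (adjusted p = 0.000196) and 0.72 ± 0.16 for Six2-Cre (adjusted p = 0.0343), and the difference of the effects, Foxd1-Cre minus Six2-Cre, was -1.14 ± 0.17 (adjusted p = 0.00426). The Six2-Cre call ended without Six2-Cre 1, 2 or 3 or wild type 7 or 9 (adjusted p 0.0870 to 0.106) and without the filter, whereas the difference kept its call in all these settings.

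The 4 fibrillar genes called in neither comparison were Col1a1, Col2a1, Col11a2 and Col27a1. Col2a1, the main fibre of cartilage, averaged 28.5 ± 3.31 FPKM in Foxd1-Cre kidneys and 23.9 ± 4.85 FPKM in wild types 1 to 6 (SD, n = 5 and 6), and 18.7 ± 0.611 FPKM in Six2-Cre kidneys and 18.6 ± 1.22 FPKM in wild types 7 to 9 (SD, n = 3 each). Of 7 cartilage markers, Hapln1 rose in Six2-Cre, while Acan, Matn1, Cnmd and Matn3 stayed below 1 FPKM in every library, and Acan and Matn1 were listed at 0 in 3 and 4 libraries. Snorc had 0.883 to 2.03 FPKM in Foxd1-Cre kidneys and was listed at 0 in wild types 1 to 6, and it was kept through mutant libraries alone, so that its difference was built into the selection. The cartilage list summed to 15.8 to 20.6 FPKM in Foxd1-Cre kidneys and 14.2 to 19.8 FPKM in wild types 1 to 6, and to 36.0 to 41.9 FPKM in Six2-Cre kidneys and 27.7 to 34.6 FPKM in wild types 7 to 9. Sox9 and Hapln1 make up most of these sums, with at least 6.60 and 5.24 FPKM in every library. Sox9 was called in neither comparison. Whether the sums follow cartilage cells was not tested. Among 6 bone markers, Runx2 rose in Foxd1-Cre kidneys (log2 change 2.82), and Sp7, kept through mutant libraries alone, had 6.00 to 8.23 FPKM there and 0.396 to 0.681 FPKM in wild types 1 to 6. Spp1, likewise kept only with mutant libraries, had 0.245 to 0.572 FPKM in Foxd1-Cre kidneys and 0.497 to 0.982 FPKM in wild types 1 to 6, and Ibsp, Bglap and Dmp1 stayed below 1 FPKM in every library. The bone list summed to 19.8 to 22.6 FPKM in Foxd1-Cre kidneys and 1.71 to 3.501 FPKM in wild types 1 to 6, and to 10.4 to 13.1 FPKM in Six2-Cre kidneys, where Runx2 rose, and 3.69 to 5.16 FPKM in wild types 7 to 9. The part of these cells in the fibrillar results was not tested.

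**Figure D3:**
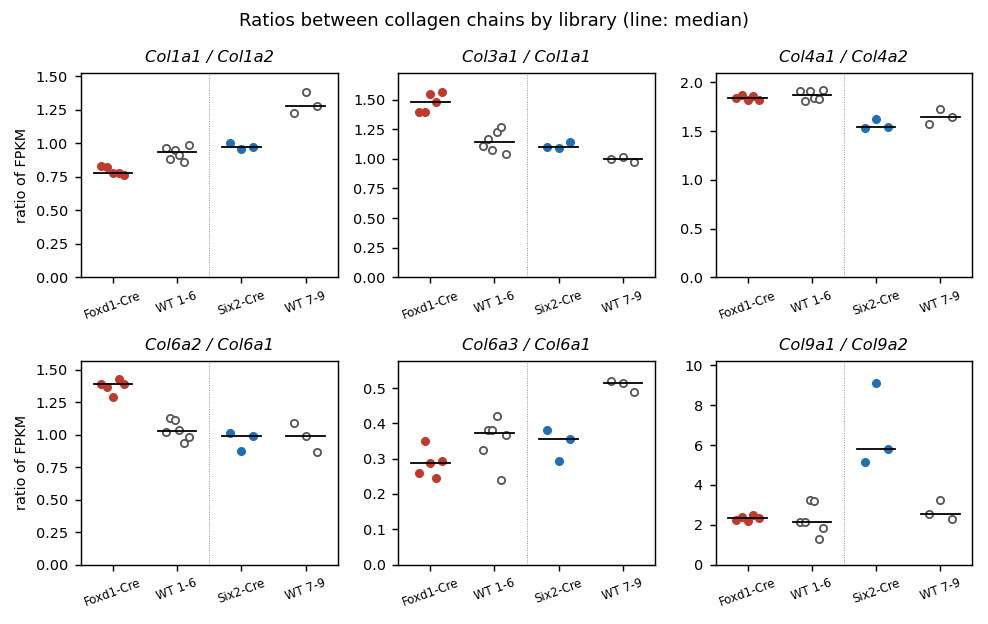
Ratios of FPKM between collagen chains in each library (points; line, median) for Foxd1-Cre, wild types 1 to 6, Six2-Cre and wild types 7 to 9. Col1a1 to Col1a2 is lower in both mutants without overlap, Col4a1 to Col4a2 overlaps in both comparisons, Col6a2 to Col6a1 is higher without overlap in Foxd1-Cre, and Col9a1 to Col9a2 in Six2-Cre.

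Among basement membrane collagens 3 of the 6 kept genes rose in Foxd1-Cre (50%: Col4a6, Col15a1, Col18a1) and 4 in Six2-Cre (66.7%: Col4a1, Col4a2, Col15a1, Col18a1). Col18a1 (chr10:77052178-77166548, minus strand) encodes a basement membrane proteoglycan whose tail fragment is endostatin. It had 71.0, 70.8, 77.5, 78.5 and 72.7 FPKM in Foxd1-Cre kidneys, against 24.6 to 45.1 FPKM (median 40.1) in wild types 1 to 6. Each mutant library lay well above each control, with a log2 change of 0.95 ± 0.13 (adjusted p = 0.000411). In Six2-Cre kidneys it had 41, 38.2 and 39.3 FPKM, against 32.4, 30.9 and 34.5 FPKM in wild types 7 to 9, a smaller rise of 0.27 ± 0.056 without overlap (adjusted p = 0.0268). The Six2-Cre call was lost without Six2-Cre 1, 2 or 3 or wild type 7 or 8 (adjusted p 0.0609 to 0.0858) and with all 9 wild types as controls. The Foxd1-Cre effect exceeded the Six2-Cre effect by 0.68 ± 0.14 (adjusted p = 0.00524), the only collagen with a called difference in that direction, where 5.76% of 13810 genes were called higher and 5.24% lower. Slc19a1, on the other strand, overlaps Col18a1.

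Col15a1 (chr4:47208161-47313167, plus strand), the close relative of Col18a1, links basement membranes to the fibres beneath them. It had 12.45, 14.02, 14.5, 19.3 and 16.2 FPKM in Foxd1-Cre kidneys, against 7.08 to 11.0 FPKM (median 10.5) in wild types 1 to 6, and 13.9, 12.8 and 13.3 FPKM in Six2-Cre kidneys, against 7.22, 7.84 and 8.76 FPKM in wild types 7 to 9. No mutant library overlapped its controls, and the log2 changes were 0.57 ± 0.12 (adjusted p = 0.00868) and 0.69 ± 0.083 (adjusted p = 0.00479). The difference of the effects was -0.12 ± 0.15 (adjusted p = 0.682). An antisense gene, Gm12426, overlaps Col15a1.

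Col4a1 and Col4a2, whose shared promoter is printed above, build the network found in nearly all basement membranes. Col4a1 had 80.7, 78.1 and 77.7 FPKM in Six2-Cre kidneys, against 68.3, 63.1 and 64.8 FPKM in wild types 7 to 9, and Col4a2 had 52.5, 47.9 and 50.5 FPKM, against 43.4, 36.5 and 39.3 FPKM. Neither overlapped, and the rises were 0.27 ± 0.044 (adjusted p = 0.0129) and 0.34 ± 0.073 (adjusted p = 0.0310) on the log2 scale. The Col4a2 call was lost without Six2-Cre 1, 2 or 3 or wild type 8 or 9 (adjusted p 0.0630 to 0.0977) and without the variance trend, and the Col4a1 call with all 9 wild types as controls. In Foxd1-Cre kidneys Col4a1 had 74.2, 79.0, 85.6, 83.7 and 72.7 FPKM, against 37.9 to 79.2 FPKM (median 73.4) in wild types 1 to 6, and Col4a2 had 40.2, 42.3, 47.2, 45.1 and 40.0 FPKM, against 20.7 to 41.9 FPKM (median 39.5). The groups overlapped and neither was called (log2 changes of 0.23 ± 0.17, adjusted p = 0.436, and 0.25 ± 0.16, adjusted p = 0.367), and without wild type 5, the lowest control for each, the changes were 0.071 and 0.10.

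The ratio of Col4a1 to Col4a2 was 1.81 to 1.87 in Foxd1-Cre kidneys and 1.81 to 1.92 in wild types 1 to 6, and 1.54 to 1.63 in Six2-Cre kidneys and 1.57 to 1.73 in wild types 7 to 9, and both pairs of ranges overlapped. In wild type 5, where each gene was lowest, the ratio was 1.83 and lay within the range of the other controls. Because the genes overlap at their start, reads there can be split between them.

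Of the other type IV chains, Col4a6 had 2.30, 2.88, 2.55, 3.28 and 2.80 FPKM in Foxd1-Cre kidneys, against 1.31 to 2.34 FPKM (median 1.92) in wild types 1 to 6. Only Foxd1-Cre 1 lay within the control range, and the log2 change of 0.38 ± 0.092 was called (adjusted p = 0.0171), though not under quantile normalization. In Six2-Cre kidneys it had 2.76, 2.92 and 1.78 FPKM, against 1.98, 2.45 and 1.58 FPKM in wild types 7 to 9, an overlap (log2 change 0.21 ± 0.18, adjusted p = 0.493). Col4a5, its partner chain, starts 1309 bases away on the opposite strand of the X chromosome and was called in neither comparison (log2 changes of 0.28 ± 0.12 in Foxd1-Cre, 0.17 without wild type 5, and -0.13 ± 0.12 in Six2-Cre). Col4a3 and Col4a4, which with Col4a5 form the network of the mature glomerular basement membrane, had at most 0.179 and 0.244 FPKM in any library.

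All 6 markers of endothelium, which lies on type IV collagen, rose in Six2-Cre kidneys, where they summed to 155 to 164 FPKM, against 72.2 to 89.5 FPKM in wild types 7 to 9. In Foxd1-Cre kidneys 3 of 6 rose (Pecam1, Emcn, Flt1), and the sum was 108 to 140 FPKM, against 88.2 to 116 FPKM in wild types 1 to 6. The part of endothelium in the basement membrane results was not tested. Of 6 ureteric bud markers Wnt11 rose and Hoxb7 fell in Foxd1-Cre, and Ret, Gata3 and Krt8 fell in Six2-Cre.

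**Figure D4:**
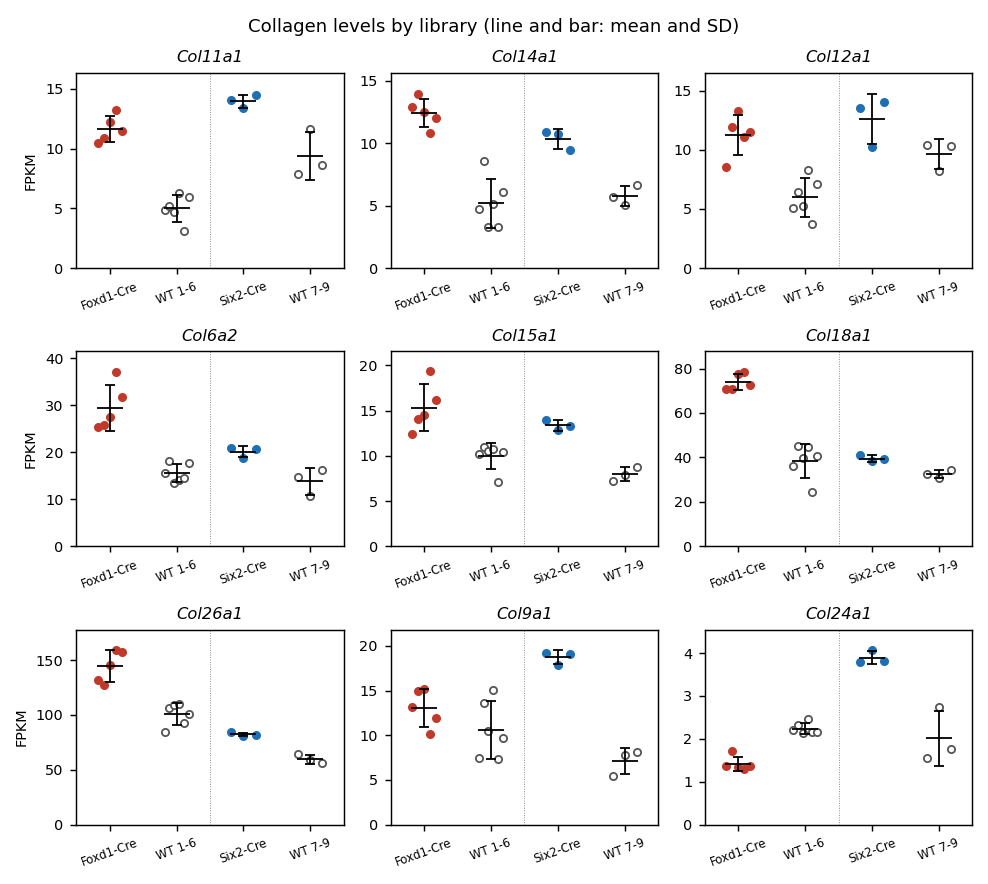
FPKM of 9 collagen genes in every library (points; line and bar, mean and SD) in Foxd1-Cre (n = 5), wild types 1 to 6 (n = 6), Six2-Cre (n = 3) and wild types 7 to 9 (n = 3). Col18a1 stands at 70.8 to 78.5 FPKM in Foxd1-Cre, Col9a1 at 17.9 to 19.2 FPKM in Six2-Cre, and Col24a1 lies below its controls in Foxd1-Cre and above them in Six2-Cre.

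Among FACIT collagens 2 of the 7 kept genes rose in each mutant (28.6%), Col12a1 and Col14a1 in Foxd1-Cre and Col9a1 and Col14a1 in Six2-Cre. Col14a1 and Col12a1 coat type I fibres in tendon and skin. Col14a1 had 12.9, 13.9, 12.47, 10.8 and 12.0 FPKM in Foxd1-Cre kidneys, against 3.30 to 8.55 FPKM (median 4.93) in wild types 1 to 6, and 10.9, 10.8 and 9.42 FPKM in Six2-Cre kidneys, against 5.66, 5.05 and 6.65 FPKM in wild types 7 to 9. Neither comparison overlapped, and the log2 changes were 1.17 ± 0.19 (adjusted p = 0.00118), the largest collagen change in Foxd1-Cre, and 0.75 ± 0.11 (adjusted p = 0.00912). Col12a1 had 8.53, 11.9, 13.2, 11.1 and 11.5 FPKM in Foxd1-Cre kidneys, against 3.73 to 8.30 FPKM (median 5.84) in wild types 1 to 6, without overlap and with a log2 change of 0.83 ± 0.16 (adjusted p = 0.00481). That call was lost with all 9 wild types as controls. In Six2-Cre kidneys Col12a1 had 13.6, 10.2 and 14.1 FPKM, against 10.4, 8.22 and 10.4 FPKM in wild types 7 to 9, where Six2-Cre 2 lay within the control range (log2 change 0.35 ± 0.14, adjusted p = 0.171). Antisense genes overlap both Col14a1 (1700040F17Rik) and Col12a1 (4930562D21Rik).

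Type IX collagen, made from Col9a1, Col9a2 and Col9a3, coats the type II fibres of cartilage. Col9a1 (chr1:24177610-24252684, plus strand), whose window with a TCF/LEF match is printed above, had 19.2, 17.9 and 19.1 FPKM in Six2-Cre kidneys, against 5.47, 7.78 and 8.09 FPKM in wild types 7 to 9. All 3 mutants lay far above all 3 controls, with a log2 change of 1.30 ± 0.14 (adjusted p = 0.00319), the largest of any collagen there. In Foxd1-Cre kidneys it had 13.2, 14.98, 15.2, 10.2 and 11.9 FPKM, against 7.33 to 15.1 FPKM (median 10.04) in wild types 1 to 6, with overlap and no call (log2 change 0.31 ± 0.18, adjusted p = 0.323). Between the mutants, the change in Foxd1-Cre less that in Six2-Cre was -0.99 ± 0.23 (adjusted p = 0.00768), a call that was lost with all 9 wild types as controls.

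The partner chains were not called. Col9a2 averaged 2.99 ± 0.915 FPKM in Six2-Cre kidneys and 2.70 ± 0.749 FPKM in wild types 7 to 9, and Col9a3 1.43 ± 0.218 FPKM and 1.40 ± 0.383 FPKM (SD, n = 3 each), and the groups overlapped for each. The ratio of Col9a1 to Col9a2 was 5.17 to 9.10 in Six2-Cre kidneys and 2.28 to 3.26 in wild types 7 to 9, without overlap, and 2.18 to 2.49 in Foxd1-Cre kidneys and 1.28 to 3.24 in wild types 1 to 6, with overlap. Col16a1, the second most abundant FACIT gene in wild types 1 to 6, had 9.27, 9.12, 9.86, 14.6 and 12.1 FPKM in Foxd1-Cre kidneys, against 6.99 to 10.7 FPKM (median 9.06) in wild types 1 to 6, and 5.94, 6.35 and 6.54 FPKM in Six2-Cre kidneys, against 6.79, 7.68 and 6.56 FPKM in wild types 7 to 9. The Foxd1-Cre groups overlapped, all Six2-Cre libraries lay below their controls, and it was called in neither (log2 changes of 0.25 ± 0.14, adjusted p = 0.296, and -0.14 ± 0.084, adjusted p = 0.337). Col20a1 was also not called.

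Of the 10 other kept collagens, Col6a1, Col6a2 and Col26a1 rose in Foxd1-Cre, beside Col7a1 with its built-in difference (40% with Col7a1 counted). Col25a1 and Col26a1 rose in Six2-Cre (20%). Col6a1, Col6a2 and Col6a3 form the beaded filaments that surround many mesenchymal cells. Col6a2 had 25.4, 25.8, 27.5, 37.1 and 31.7 FPKM in Foxd1-Cre kidneys, against 13.6 to 18.2 FPKM (median 14.99) in wild types 1 to 6, and Col6a1 had 18.3, 18.8, 21.3, 26.0 and 22.8 FPKM, against 12.2 to 17.9 FPKM (median 15.3). All mutants lay above all controls for each, and the log2 changes were 0.87 ± 0.11 (adjusted p = 0.000164) and 0.48 ± 0.10 (adjusted p = 0.00991). In Six2-Cre kidneys Col6a2 had 20.9, 18.7 and 20.7 FPKM, against 14.7, 10.7 and 16.2 FPKM in wild types 7 to 9, and Col6a1 had 20.6, 21.3 and 20.8 FPKM, against 13.4, 10.8 and 18.7 FPKM. These did not overlap either, but neither was called (log2 changes of 0.52 ± 0.15, adjusted p = 0.0676, and 0.55 ± 0.18, adjusted p = 0.0955).

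The ratio of Col6a2 to Col6a1 was 1.29 to 1.43 in Foxd1-Cre kidneys and 0.938 to 1.13 in wild types 1 to 6, without overlap, and 0.877 to 1.01 in Six2-Cre kidneys and 0.869 to 1.09 in wild types 7 to 9. Col6a3 was called in neither comparison (log2 changes of 0.18 ± 0.12 in Foxd1-Cre, 0.10 without wild type 5, and 0.0084 ± 0.17 in Six2-Cre). Its ratio to Col6a1 was 0.244 to 0.349 in Foxd1-Cre kidneys and 0.239 to 0.422 in wild types 1 to 6, which overlapped, and 0.294 to 0.380 in Six2-Cre kidneys and 0.489 to 0.521 in wild types 7 to 9, which did not. Col6a1 and Col6a2 lie on the same strand of chromosome 10, 85162 bases apart.

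Col26a1 (chr5:136741759-136883209, minus strand), a small secreted collagen first described in mouse testis and ovary, was the most abundant gene of this class. It had 132, 127, 146, 159 and 157 FPKM in Foxd1-Cre kidneys, against 84.6 to 109.9 FPKM (median 103) in wild types 1 to 6, and 84.0, 81.1 and 81.8 FPKM in Six2-Cre kidneys, against 64.3, 58.5 and 55.8 FPKM in wild types 7 to 9. Neither comparison overlapped, and the log2 changes of 0.52 ± 0.081 (adjusted p = 0.00109) and 0.46 ± 0.058 (adjusted p = 0.00536) were close, with a difference of 0.053 ± 0.10 (adjusted p = 0.802). Wild types 7 to 9 all lay below wild types 1 to 6 for this gene, and with all 9 wild types as controls the Six2-Cre change was -0.031 and not called.

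Col25a1, a collagen anchored in the cell membrane, had 11.9, 10.8 and 12.502 FPKM in Six2-Cre kidneys, against 4.10, 5.29 and 6.46 FPKM in wild types 7 to 9, a rise without overlap of 1.04 ± 0.15 (adjusted p = 0.00814). In Foxd1-Cre kidneys it had 9.68, 9.15, 9.83, 4.83 and 8.18 FPKM, against 4.15 to 7.99 FPKM (median 5.69) in wild types 1 to 6. Foxd1-Cre 4 lay within the control range and the other 4 above it, and no call was made (log2 change 0.44 ± 0.19, adjusted p = 0.166). Col7a1, the anchoring fibril collagen, had 1.37, 1.06, 1.11, 1.79 and 1.53 FPKM in Foxd1-Cre kidneys, against 0.592 to 1.36 FPKM (median 0.701) in wild types 1 to 6, where wild type 5 alone lay among the mutants. Because it passed the filter through the Foxd1-Cre libraries, its log2 change of 0.39 ± 0.11 (adjusted p = 0.0416) is given as a description. It was not called without Foxd1-Cre 1, 4 or 5 or wild type 1, 2, 3, 4 or 6 (adjusted p 0.0544 to 0.101) and without the filter, and without wild type 5 it was 0.47 with an adjusted p of 0.00505. In Six2-Cre kidneys it had 0.382, 0.455 and 0.460 FPKM, against 0.435, 0.407 and 0.325 FPKM in wild types 7 to 9 (log2 change 0.045 ± 0.13, adjusted p = 0.849). The other 5 kept genes of this class, Col6a3, Col8a1, Col8a2, Col13a1 and Col23a1, were called in neither comparison.

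Genes that make, process, bind or degrade collagen were followed as lists, of which 46 of 58 genes were tested. In Foxd1-Cre 17 rose (37.0%) and 1 fell (2.174%), against 8.45% and 4.82% of all genes tested, with a median log2 change of 0.17. In Six2-Cre 28 rose (60.9%) and 1 fell (2.174%), against 7.93% and 5.84%, with a median of 0.36. The lists that follow are read against the same shares. Of the 22 biosynthesis genes 8 rose in Foxd1-Cre (36.4%) and 13 in Six2-Cre (59.1%). P4ha1, the catalytic subunit of the prolyl hydroxylase that stabilises the collagen helix, averaged 133 ± 5.51 FPKM in Foxd1-Cre kidneys and 80.3 ± 14.6 FPKM in wild types 1 to 6 (log2 change 0.74 ± 0.11, adjusted p = 0.00061), and P4ha2, a second such subunit, rose by 0.49 ± 0.088. Sec24d, a coat protein of the vesicles that carry procollagen, rose in Foxd1-Cre (0.45 ± 0.061, adjusted p = 0.000406) and in Six2-Cre (0.40 ± 0.054, adjusted p = 0.00662).

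In Six2-Cre the smallest p-values of this list fell to Fkbp10, Crtap, Serpinh1 and Sec24d. Fkbp10, a collagen chaperone, averaged 52.3 ± 2.10 FPKM in Six2-Cre kidneys and 33.0 ± 2.79 FPKM in wild types 7 to 9 (log2 change 0.65 ± 0.071, adjusted p = 0.00353). Crtap, a subunit of the prolyl 3-hydroxylase complex, rose by 0.47 ± 0.053 (adjusted p = 0.00376) and Serpinh1, the chaperone HSP47, by 0.32 ± 0.041 (adjusted p = 0.00587). In Foxd1-Cre these 3 were not called (log2 changes of 0.15 ± 0.061, 0.088 ± 0.058 and 0.29 ± 0.095). The difference of the effects was called for Fkbp10 (-0.50 ± 0.093, adjusted p = 0.00242) and Crtap (-0.38 ± 0.078, adjusted p = 0.00341) and not for Serpinh1 (-0.036 ± 0.10, adjusted p = 0.878). With all 9 wild types as controls the Six2-Cre calls of Fkbp10, Crtap and Serpinh1 and the difference calls of Fkbp10 and Crtap were lost, as were the Six2-Cre calls of Loxl1, Mmp2 and Mmp14 and the difference call of Loxl1.

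Processing and crosslinking genes rose in 3 of 11 cases in Foxd1-Cre (27.3%), with 1 fall, and in 7 of 11 in Six2-Cre (63.6%). Pcolce, an enhancer of procollagen cleavage, rose in both, by 0.62 ± 0.11 (adjusted p = 0.00229) and 0.66 ± 0.07 (adjusted p = 0.00319). So did Adamts3, a procollagen N-proteinase (0.37 ± 0.054, adjusted p = 0.00063; 0.56 ± 0.11, adjusted p = 0.0248), and Lox, the lysyl oxidase that crosslinks fibres (0.73 ± 0.12, adjusted p = 0.00118; 0.88 ± 0.22, adjusted p = 0.0456). The Lox and Adamts3 calls in Six2-Cre were lost without Six2-Cre 1, 2 or 3 or wild type 7 or 8, and the Adamts3 call also without wild type 9. In Foxd1-Cre the Adamts3 call was lost with all 9 wild types as controls. Loxl2, a relative of Lox, averaged 52.1 ± 0.993 FPKM in Six2-Cre kidneys and 29.7 ± 1.79 FPKM in wild types 7 to 9, and 27.7 ± 2.08 FPKM in Foxd1-Cre kidneys and 26.8 ± 4.18 FPKM in wild types 1 to 6. Its Foxd1-Cre effect minus its Six2-Cre effect was -0.73 ± 0.12 (adjusted p = 0.000542), and for Loxl1 the same difference was -1.17 ± 0.16 (adjusted p = 0.000106). Loxl4 fell in Foxd1-Cre by 0.69 on the log2 scale (adjusted p = 0.00120).

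Of 6 collagen receptors tested 3 rose in Foxd1-Cre (50%), and 5 rose (83.3%) and 1 fell (16.7%) in Six2-Cre. Itga1 and Itga2, integrin subunits that bind collagen, rose in Foxd1-Cre by 0.69 ± 0.084 (adjusted p = 0.000154) and 0.34 ± 0.074 (adjusted p = 0.00912). In Six2-Cre they rose by 0.76 ± 0.12 (adjusted p = 0.0101) and 0.67 ± 0.13 (adjusted p = 0.0217). Itgb1, Ddr2 and Mrc2 also rose in Six2-Cre. The Ddr2 and Mrc2 calls were lost without Six2-Cre 1 or 2 or wild type 7 or 8, among other settings. Ddr1, a collagen-activated receptor kinase of epithelia, rose in Foxd1-Cre (0.17 ± 0.044, adjusted p = 0.0247) and fell in Six2-Cre (-0.35 ± 0.082, adjusted p = 0.0381). Its difference was 0.52 ± 0.093 (adjusted p = 0.00503). Both Ddr1 calls were lost when a library was left out, in Foxd1-Cre without Foxd1-Cre 3, 4 or 5 (and with all 9 wild types as controls) and in Six2-Cre without Six2-Cre 1, 2 or 3 or wild type 7 or 8. The Itga2 call in Six2-Cre was lost without Six2-Cre 1, 2 or 3.

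Of 7 turnover genes 3 rose in each mutant (42.9%). Timp3, an inhibitor of matrix proteases that is bound to the matrix, had 16.5 to 19.4 FPKM in Foxd1-Cre kidneys and 10.8 to 13.1 FPKM in wild types 1 to 6, and 28.1 to 28.6 FPKM in Six2-Cre kidneys and 11.8 to 15.7 FPKM in wild types 7 to 9. It rose by 0.52 ± 0.052 (adjusted p = 2.92e-05) and 1.06 ± 0.11 (adjusted p = 0.00306). The proteases Mmp2 and Mmp14 rose in Six2-Cre, by 0.67 ± 0.041 (adjusted p = 0.000672) and 0.48 ± 0.039 (adjusted p = 0.00151). In Foxd1-Cre, Ctsk, a collagen-degrading cathepsin, rose by 0.75 ± 0.15 (adjusted p = 0.00524) and Timp2 by 0.20 ± 0.041 (adjusted p = 0.00641).

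The count of machinery calls in Six2-Cre ran from 14 to 24 when a library was left out. It was 18, 17 and 14 without Six2-Cre 1, 2 and 3, and 18 and 16 without wild types 7 and 8. The difference of the effects was called for 2 machinery genes (4.35%) in the direction of a larger Foxd1-Cre effect and for 10 (21.7%) in the other, against 5.76% and 5.24% of all genes tested. It fell to 7 calls without Six2-Cre 1 or 3.

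**Figure D5:**
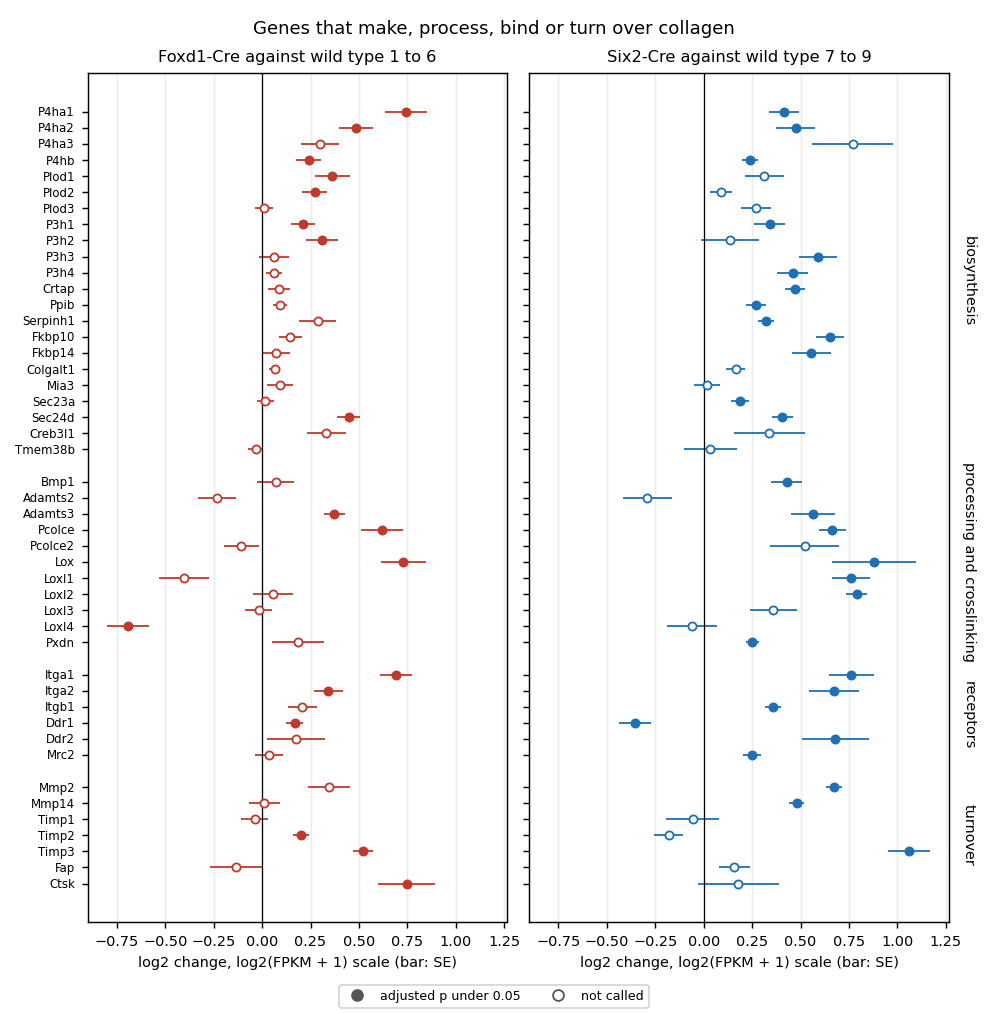
Log2 change of the 46 tested genes that make, process, bind or turn over collagen (rows, by list) in Foxd1-Cre (left) and Six2-Cre (right), with bars for the SE and filled points for calls. Of the 22 biosynthesis genes 8 are called higher in Foxd1-Cre and 13 in Six2-Cre, and Loxl4 in Foxd1-Cre and Ddr1 in Six2-Cre are the called falls.

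Markers of the cell types that make collagen moved as well. Of 7 stromal markers, Foxd1, Meis1 and Ntn1 fell in Foxd1-Cre, with a list sum of 243 to 278 FPKM, against 323 to 394 FPKM in wild types 1 to 6. Within that sum Foxd1 alone averaged 19.9 FPKM, against 102 FPKM. Of the 7 markers 3 had positive log2 changes there, and the list median was -0.020. In Six2-Cre, Pdgfra, Pdgfrb and Meis1 rose and Ntn1 fell, with a sum of 367 to 390 FPKM, against 311 to 343 FPKM in wild types 7 to 9. All 5 nephron progenitor markers fell in Six2-Cre (sum 74.5 to 77.9 FPKM, against 226 to 263 FPKM) and 3 of 5 in Foxd1-Cre (211 to 249 FPKM, against 272 to 362 FPKM). Of the 5 mural markers tested, Acta2 and Tagln rose in both mutants, Cspg4 and Rgs5 rose and Des fell in Six2-Cre. The mural list summed to 74.8 to 127 FPKM in Foxd1-Cre kidneys and 49.4 to 103 FPKM in wild types 1 to 6, and to 99.5 to 120.4 FPKM in Six2-Cre kidneys and 66.9 to 72.5 FPKM in wild types 7 to 9. The part of these cells in the collagen results was not tested.

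Among further marker lists, 3 of 6 erythroid genes fell in Foxd1-Cre (Alas2, Slc4a1 and Epor) and 5 of 6 in Six2-Cre, where Epor rose. The list summed to 2892 to 4815 FPKM in Foxd1-Cre, against 3594 to 7067 FPKM, and to 3573 to 4423 FPKM in Six2-Cre, against 7085 to 8597 FPKM. These sums are mostly Hba-a1 and Hbb-y, which were not called in Foxd1-Cre, whereas the 3 genes called there stayed at or below 8.92 FPKM in every library. Of 5 macrophage markers only Mrc1 was called, higher in Six2-Cre. Of 5 mesothelial markers 3 were tested, and Krt19 rose in Foxd1-Cre. Upk3b was called higher there too, but was kept only with mutant libraries. Msln and Lrrn4 stayed below 1 FPKM in every library. Wt1, on the same list, fell in Six2-Cre. It had 39.9 to 83.1 FPKM over all libraries, where Upk3b and Krt19 had at most 3.65 and 4.13 FPKM, so that its fall does not show a change of mesothelium. The neural marker Tubb3 rose in both, and of adrenal and gonadal markers Amhr2 rose in Foxd1-Cre, while Nr5a1 and Cyp11a1 stayed below 1 FPKM throughout.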

How the data were processed

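Dissected kidneys gave 17 total RNA libraries. Values were FPKM per gene as deposited by the authors, made with bcl2fastq 2.17.1.14 and Salmon on GRCm38 (mm10), per the submitters' processing notes. The annotation, the strand setting and further filters are not given in the sources used here, and no read counts were used. Gene IDs were matched to GENCODE M21 symbols (24189 of 24432). Genes at 1 FPKM or more in at least 3 libraries of the table (14014) were kept, and log2(FPKM + 1) was fitted with limma 3.58.1 (R 4.3.3, mean-variance trend), separately for Foxd1-Cre against wild types 1 to 6 and Six2-Cre against wild types 7 to 9. Benjamini-Hochberg adjustment ran over all genes with variation. Effects were compared as Foxd1-Cre minus Six2-Cre, the error being the root of the summed squared errors (degrees of freedom after Satterthwaite). The fit was tested on simulated data. Depth was estimated from the commonest small value of FPKM times annotated length, over genes with a single annotated transcript. Library values were given for collagens called in any comparison and the 2 most abundant of each class, and up to 4 machinery genes per list with the smallest p were named. The members and lists were chosen with earlier results of these data known. Alternatives were another pseudocount, no filter and a stricter one, rescaling to the same total, quantile normalization, all 9 wild types as controls, no variance trend, a replicate block and leaving out each library.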

Additional observations from a re-analysis of the deposited data

Results flagged for a closer look

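In groups of 5 or 6 libraries, the gap between an extreme library and its neighbour exceeded Dixon's critical value for 8 of 66 collagen groups. That value flags about 1 in 20 independent groups by chance. These groups share libraries, and the share over all genes was not taken, so that no excess among collagens can be read from the count. Wild type 5 was the outlying library in 6 of the 8. It was far below the other 5 wild types for Col4a1 (37.9 FPKM), Col4a2 (20.7 FPKM), Col4a5 (7.17 FPKM) and Col15a1 (7.08 FPKM), all basement membrane genes, and far above them for Col11a2 (1.83 FPKM) and Col27a1 (9.50 FPKM). The other outlying values were Foxd1-Cre 4 for Col9a3, with 2.11 FPKM, below the other Foxd1-Cre libraries, and Foxd1-Cre 2 for Col24a1, with 1.71 FPKM, above the other Foxd1-Cre libraries and below every wild type.

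For 3 collagens the effect of stabilised beta-catenin differed between the lineages by the test of the difference. That was 1 gene higher (3.03%) and 2 lower (6.06%) of the 33, where 5.76% and 5.24% of all 13810 genes tested were called, so that the count is near the share over all genes. Foxd1-Cre minus Six2-Cre, the effects differed by -1.14 for Col24a1, -0.99 for Col9a1 and 0.68 for Col18a1, all on the log2 scale. Each lineage was compared within its own library set, and the sets differ in depth, so that lineage and library set cannot be told apart here.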

How the results depend on the processing

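The Foxd1-Cre count of 13 collagen calls stayed between 11 and 14 when a library was left out and at 12 or 13 under the other settings, and the machinery count of 18 between 13 and 23. The Six2-Cre counts moved more: the 14 collagen calls ran from 8 to 15, and the 29 machinery calls from 14 to 24, when a library was left out. Against all 9 wild types there were 18 collagen calls (11 of the 14 were kept, and Col4a1, Col18a1 and Col26a1 were lost) and 18 machinery calls. The 3 collagen calls of the difference became 14 with all 9 wild types as controls and stayed at 3 or 4 when a library was left out, and the 12 machinery calls ran from 7 to 16. All 9 wild types as controls mixes the deep and shallow library sets, and the median difference over all genes then moved to 0.12. Among changes of sign Col26a1 was a called value, and it turned to -0.031 in Six2-Cre against all 9 wild types. The others were not called. Col7a1 in Six2-Cre was -0.031 under quantile normalization and -0.20 against all 9 wild types. With all 9, the difference turned to -0.29 for Col1a1, 0.0099 for Col1a2, 0.00095 for Col4a1, 0.021 for Col6a1, -0.25 for Col11a1 (0.55 ± 0.19 in the comparisons as made), -0.15 for Col12a1 (0.48 ± 0.22) and 0.17 for Col15a1. When a library was left out it ran from -0.026 to 0.19 for Col1a1, -0.19 to 0.016 for Col1a2, -0.20 to 0.013 for Col4a1, -0.27 to 0.098 for Col6a1 and -0.0023 to 0.098 for Col26a1. The cause was not tested.

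The replicate block left 12 collagen calls for Foxd1-Cre (Col7a1 was lost) and 13 machinery calls. Foxd1-Cre and wild-type libraries of the same number are not labelled as pairs. Their deviations correlated at 0.022 to 0.099, against -0.14 to 0.11 over all combinations, and 0 of 5 correlated best with their own number. Low correlations cannot exclude a pairing or a shared batch. For Six2-Cre no paired analysis was possible because Six2-Cre 1 to 3 and wild types 7 to 9 share no replicate number. Depth limits collagens under 1 FPKM most, in Six2-Cre and wild types 7 to 9 above all.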
